A study of Mus musculus with 9 samples.

Results

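The sites described here are ATAC-seq peaks that went one way with a first short hairpin RNA against Med4 and the other way with a second. A peak was taken when its mean in the non-targeting control (NTC) was at least 50 normalised reads, one hairpin's mean was at least 1.3 times the NTC mean, and the other hairpin's mean was at or below the NTC mean divided by 1.3. Of 146734 peaks in the deposited set, 136660 reached the NTC minimum and 2012 met the rule, 1.47% of those. There were 697 peaks that were higher with hairpin #1 and lower with hairpin #4, called #1-high peaks below, and 1315 that were higher with #4 and lower with #1, called #4-high peaks. For comparison, 15251 peaks (11.2%) were at least 1.3-fold higher with both hairpins and 11564 (8.46%) were at least 1.3-fold lower with both. The members were selected on the 3 group means of normalised reads, so their folds against NTC and between hairpins are descriptions with no test.

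The cells were D2A1-d, a mouse breast carcinoma line kept in medium with 10% fetal bovine serum, labelled untreated in all groups. They had been transduced with the NTC hairpin (genotype labelled WT), with shMed4 #1 or with shMed4 #4 (both labelled Med4 knockdown), and each group had 3 libraries labelled as biological replicates. The title of the study is about MED4 and metastatic dormancy in breast cancer. The labels do not say whether the replicates were separate transductions or whether each line was a pool or a clone, and spreads and p-values then measure only the spread between these libraries.

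ATAC-seq uses a transposase that inserts where DNA is not wrapped tightly, and more reads at a site mean easier access to it. The protein made from Med4 belongs to the middle part of Mediator, a large complex that links DNA-bound transcription factors with the polymerase that makes messenger RNA. Enhancers lie far from gene starts and promoters lie at them, and both are usually open where they are in use. A short hairpin RNA lowers a transcript through a short matching sequence, and different hairpins against one gene can also touch different other transcripts. Libraries held 44753019 to 98898174 reads in peaks, their median peaks held 110 to 247 reads, and the library with the fewest was replicate 3 of #4. In the table all peaks are named in the deposited file as intervals 501 bases wide on mm10. Accessibility at Med4 itself does not measure the knockdown; its gene-end peak held 559, 558 and 516 normalised reads in NTC, 424, 467 and 462 with #1, and 455, 459 and 494 with #4. Both hairpins were below NTC there without overlap, and no peak assigned to Med4 met the rule. Of 13 epithelial marker genes, 3 had a peak within 1 kb of a gene end (Krt18, Krt14 and Elf3) and the others, Krt8, Epcam and Cdh1 among them, had none, whereas 9 of 10 mesenchymal markers had one. So did 4 of 8 immune, 2 of 4 adipocyte and 1 of 5 endothelial markers, so such a peak alone does not name the cell type. The NTC median over all gene-end peaks was 718 normalised reads. It was reached by 5 mesenchymal markers and by 1 epithelial marker, Elf3 at 2392.

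Few of the oppositely moved peaks lay at promoters. Of the 2012 peaks, 17 covered at least 150 bases of a RefSeq promoter window (250 bases before to 50 after a gene's start, GRCm38.p6), 0.845%, against 6.25% of all peaks over the NTC minimum. These shares were not read at like NTC level, and the members were low peaks. Peaks within 1 kb of a gene end were scarce among peaks higher with both hairpins too (4.35%, beside 3.18% of members and 11.6% of all). The 17 peaks covered 18 windows, 4 from #1-high and 14 from #4-high peaks. The 250 bases upstream of the start are shown for 6 of them, because these are the sites where an opposite response sits directly on a named gene's start. Capitals mark matches, on either strand, to letters of 4 kinds. TEAD transcription factors are known to bind near the letters GGAATG. RUNX transcription factors, which act in blood and bone, were searched with TGTGGT. ETS transcription factors, a large family of regulators, were searched with CCGGAA. Zinc finger factors of the GATA family were searched with AGATAA. Searches for the AP-1 letters, which are TGANTCA, and for the CTCF core motif found no match in these 6. All run 5′ to 3′ on the gene's strand. The first 5 lie in #4-high peaks and the last lies in a #1-high peak.
Ptx3, chr3:66219637-66219886, plus strand: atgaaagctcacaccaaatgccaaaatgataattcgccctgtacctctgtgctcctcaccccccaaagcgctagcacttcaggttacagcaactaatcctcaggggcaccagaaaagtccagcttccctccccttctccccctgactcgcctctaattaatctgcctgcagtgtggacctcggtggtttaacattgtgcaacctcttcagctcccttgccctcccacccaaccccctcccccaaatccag
Aspg, chr12:112106433-112106682, plus strand: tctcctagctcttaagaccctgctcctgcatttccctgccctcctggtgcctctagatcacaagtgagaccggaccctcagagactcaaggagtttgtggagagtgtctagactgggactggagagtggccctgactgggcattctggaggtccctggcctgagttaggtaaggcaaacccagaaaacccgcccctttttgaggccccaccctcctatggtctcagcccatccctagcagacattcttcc
Tmsb15l, chrX:136976875-136977124, minus strand: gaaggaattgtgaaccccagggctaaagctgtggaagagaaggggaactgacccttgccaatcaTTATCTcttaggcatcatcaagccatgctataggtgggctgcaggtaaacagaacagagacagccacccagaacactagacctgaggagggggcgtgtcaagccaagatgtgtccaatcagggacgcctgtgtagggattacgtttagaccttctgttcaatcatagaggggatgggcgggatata
Aldoc, chr11:78322823-78323072, plus strand: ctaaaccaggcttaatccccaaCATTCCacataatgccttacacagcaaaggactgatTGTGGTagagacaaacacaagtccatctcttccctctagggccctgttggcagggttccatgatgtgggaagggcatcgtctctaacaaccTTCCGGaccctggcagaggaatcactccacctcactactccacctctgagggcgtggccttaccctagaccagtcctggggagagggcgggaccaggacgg
Ccl17, chr8:94810203-94810452, plus strand: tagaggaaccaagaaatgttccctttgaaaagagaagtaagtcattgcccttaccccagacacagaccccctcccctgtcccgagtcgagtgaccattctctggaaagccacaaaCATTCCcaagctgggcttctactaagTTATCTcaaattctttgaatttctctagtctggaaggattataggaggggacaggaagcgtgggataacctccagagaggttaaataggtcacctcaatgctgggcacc
Slamf8, chr1:172590569-172590818, minus strand: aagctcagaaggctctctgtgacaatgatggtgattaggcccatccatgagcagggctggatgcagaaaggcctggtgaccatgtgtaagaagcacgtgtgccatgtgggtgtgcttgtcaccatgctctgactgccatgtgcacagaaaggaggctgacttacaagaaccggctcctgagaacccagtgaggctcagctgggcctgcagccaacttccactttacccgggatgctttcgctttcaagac

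Among the 18 windows, GATA letters were in 5 (27.8%, against 9.99% of all 32851 promoter windows), TEAD letters in 4 (22.2% against 12.6%) and AP-1 letters in 2 (11.1% against 6.75%). RUNX letters were in 2 (11.1% against 14.0%), ETS letters in 1 (5.56% against 12%) and CTCF letters in 0 (0.0% against 2.07%). With 18 windows, 2 of which are the same DNA under 2 gene names (Tmsb15l and Tmsb15b1), these shares are counts of letters and no more. The windows had a median GC content of 53.2%, beside 60.0% for the 10302 windows covered by any peak over the NTC minimum and 52.4% for all windows.

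At the Ptx3 promoter, NTC libraries held 79.1, 75 and 93.3 normalised reads, #1 libraries 33.6, 47.0 and 41.8, and #4 libraries 189, 215 and 187. Ptx3 encodes pentraxin 3, a secreted pattern-recognition protein of innate immunity. The 3 groups did not overlap, with #1 at 0.495 and #4 at 2.39 times NTC. At Aspg, an asparaginase gene, values were 67.8, 89.3 and 64.6 in NTC, 34.4, 29.2 and 36.3 with #1, and 258, 159 and 208 with #4. At Tmsb15l, of the actin-binding thymosin beta family, they were 91.2, 80.1 and 69.5 in NTC, 45.6, 36.5 and 35.2 with #1, and 306, 271 and 270 with #4. Groups were again separate at both, although assignment of reads among near-identical Tmsb15 copies is uncertain. The Aldoc promoter (aldolase C, a glycolytic enzyme) went from an NTC mean of 86.7 ± 11.3 to 47.5 ± 14.3 with #1 and 156 ± 27.3 with #4 (SD, n = 3 here and below). The Ccl17 promoter (a chemokine) went from 256 ± 19.9 to 166 ± 2.2 and 362 ± 18.4, and the Slamf8 promoter (a surface receptor of myeloid cells) from 55.6 ± 11.3 to 76.0 ± 8.56 and 38.7 ± 7.45. Slamf8 had the lowest level of the 6 and its #1 libraries, at 85.6, 73.0 and 69.3, came close to the highest NTC library at 68.6. Its highest #4 library, at 46.0, came close to the lowest NTC library at 48.3. Neither hairpin was called against NTC there (limma, adjusted p under 0.05).

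Over all members, the median log2 ratio to NTC was 0.53 with #1 and -0.52 with #4 in #1-high peaks, and -0.60 with #1 and 0.59 with #4 in #4-high peaks. The change with #1 was the larger in 1029 peaks and that with #4 in 983. The fold between the hairpins had a median of 2.14 in #1-high peaks, with a maximum of 5.49, and a median of 2.41 in #4-high peaks, with a maximum of 12.9. Both arms passed 1.5-fold in 90 #1-high and 373 #4-high peaks, and both passed 2-fold in 1 and 26. The NTC median was 149 normalised reads in #1-high and 99.8 in #4-high peaks, both below the 209 of all peaks over the minimum. It was 133 for peaks higher with both hairpins and 158 for peaks lower with both. Peaks that met the rule made up 2.56% of peaks with an NTC mean of 50 to 100 and 0.45% of those at 400 or more. At 50 to 100, 100 to 200, 200 to 400 and 400 or more, #1-high peaks made up 0.629%, 0.625%, 0.639% and 0.275%. For #4-high peaks the shares were 1.93%, 1.24%, 0.719% and 0.175%. Peaks higher with both also went from 16.7% in the lowest of these levels to 5.17% in the highest.

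**Figure D1:**
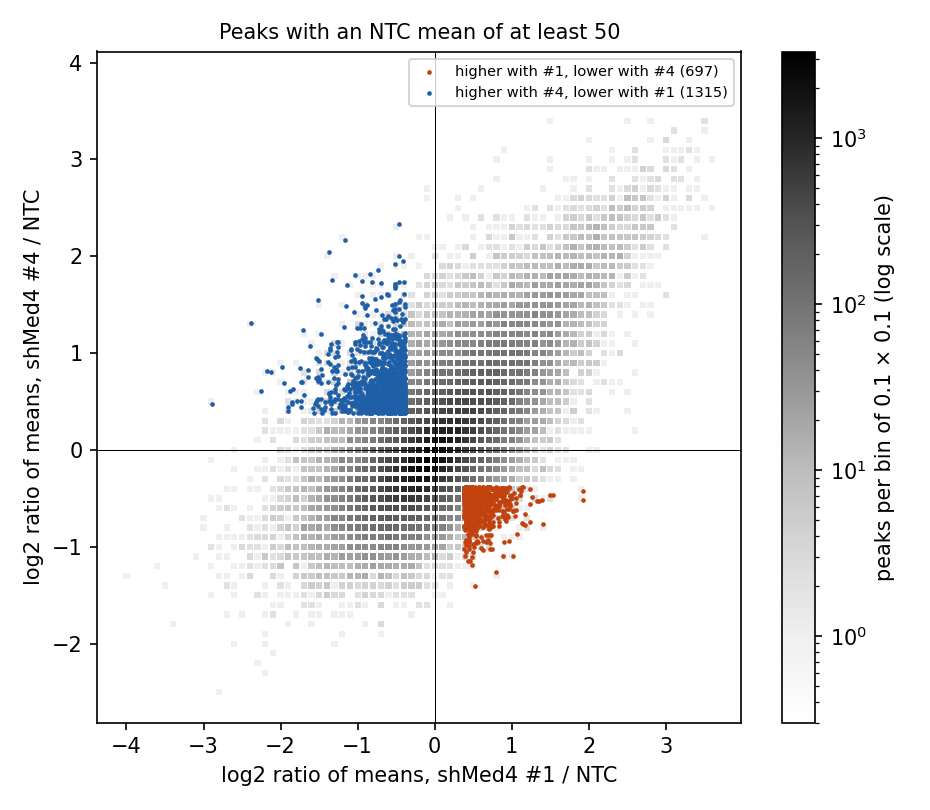
Ratio to NTC of group means (log2) with shMed4 #1 (x axis) and shMed4 #4 (y axis) for the 136660 peaks with an NTC mean of at least 50. Grey squares give the number of peaks per bin on a log scale, most of them along the diagonal from lower left to upper right, and coloured points are the 697 peaks higher with #1 and the 1315 higher with #4.

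The opposite peaks are a small corner of the difference between hairpins. There were 10790 peaks (7.9%) whose hairpin means differed by at least 1.69-fold, the least fold the rule allows. NTC lay between the hairpins with both arms past 1.3 in 18.6% of them, and between the hairpins with 1 arm short of 1.3 in 42.7%. In 20.8% NTC was level with or below both hairpins, and in 17.8% it was level with or above both. Of the 10790, 6722 (62.3%) were higher with #4.

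With limma (adjusted p under 0.05 over all 146729 tested peaks), 1569 of the 2012 members (78.0%) were called in opposite directions with the 2 hairpins, 566 of 697 and 1003 of 1315. Among all tested peaks, 3.17% were called in opposite directions, 1.72% higher with #1 and 1.45% higher with #4. With #1 against NTC, 1761 members were called, beside 52.7% of all peaks (27.9% higher and 24.9% lower), and with #4 1729 were, beside 50.4% (26.2% higher and 24.3% lower). Between the hairpins all 2012 were called, beside 41.6% (20.4% higher and 21.2% lower with #4). With the 2 hairpins pooled against NTC, 222 members (11%) were called, beside 54.1% of all peaks (27.9% higher and 26.2% lower). All 3 libraries of each hairpin lay beyond all 3 NTC libraries on opposite sides in 1641 members, beside 4.88% of all peaks (2.65% with #1 and 2.23% with #4 on the high side). The rule used these contrasts, so the counts show the spread of the libraries and are no support for the choice. When gene-end peaks were used to centre the libraries, 61.4% of calls with #1 and 68.4% of calls with #4 were on the high side, in place of 52.8% and 51.9%.

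Peaks were also chosen anew from part of the libraries and read in the rest. The sets so chosen are not the 2012 members, for which all libraries were used. The rule was applied to 2 of the 3 replicate numbers and the remaining library of each group was then read, which gave 2240, 2201 and 2031 peaks in the 3 rounds. In 83.9%, 84.9% and 86.7% of them both held-out hairpin libraries lay on their chosen sides of the held-out NTC library. Among all peaks over the minimum, 26.9% to 29.6% had their hairpin libraries on opposite sides of NTC, in either order. The full 1.3-fold ratio was met again on both arms in 41.8%, 41.3% and 45%. The hairpins were in the chosen order in 98.3% to 98.9%, a share that cannot be below that on the chosen sides. The labels do not say whether replicates were separate transductions. The shares therefore show only that libraries of one group resembled each other at these peaks.

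Normalised reads summed over the members were even within groups. Over the 697 #1-high peaks the sum ran from 172104 to 177276 in NTC, 261224 to 263392 with #1 and 116481 to 122901 with #4. Over the 1315 #4-high peaks it ran from 203270 to 205006 in NTC, 126526 to 130879 with #1 and 323837 to 330297 with #4. The ranges of the groups did not overlap in either class. The rule chose the peaks on the means of these same libraries, so this separation is no result.

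The #4-high peaks held the largest differences between hairpins. The largest of all lay 8.85 kb from Stfa3, a stefin A cysteine protease inhibitor gene, with 167, 195 and 193 normalised reads in NTC, 30.4, 45.4 and 30.8 with #1, and 452, 450 and 478 with #4. It was 12.9-fold higher with #4 than with #1 and the groups were far apart, but it sits in a cluster of near-identical stefin genes where read assignment is uncertain. Inside Thsd7a, which encodes a membrane protein with thrombospondin repeats, a peak held 63.0, 91.4 and 65.5 in NTC, 25.6, 31.6 and 40.7 with #1, and 335, 318 and 337 with #4, with #4 at 4.50 times NTC. Inside Adam12, a membrane metalloprotease gene, the values were 128, 133 and 156 in NTC, 55.2, 48.7 and 62.7 with #1, and 442, 454 and 520 with #4. These groups did not overlap. The Adam12 gene-end peak did not share this pattern, with means of 324 in NTC, 440 with #1 and 355 with #4.

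A peak inside Naaladl2 held 94.4, 79.1 and 93.3 in NTC, 51.2, 24.3 and 27.5 with #1, and 383, 366 and 347 with #4. One inside Fry, whose product acts in cell shape and the spindle, held 132, 146 and 110, then 32.8, 51.1 and 51.7, then 378, 391 and 362 in the same order of groups. One inside Deptor, an inhibitor of the mTOR kinase, held 117, 152 and 166, then 37.6, 30.8 and 60.5, then 246, 253 and 288. In all 3 the #1 libraries were lowest and the #4 libraries highest with no overlap. Ubxn7, whose product is a cofactor of the p97 ATPase, had a peak 2.13 kb away that was moved mainly by #1, from an NTC mean of 350 ± 40.9 to 90.4 ± 4.06, beside 563 ± 51.0 with #4. Hs3st5, a heparan sulfate sulfotransferase gene, had the lowest NTC level of these at 50.1 ± 4.93, with 11.6 ± 5.47 with #1 and 87.7 ± 22.6 with #4.

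**Figure D2:**
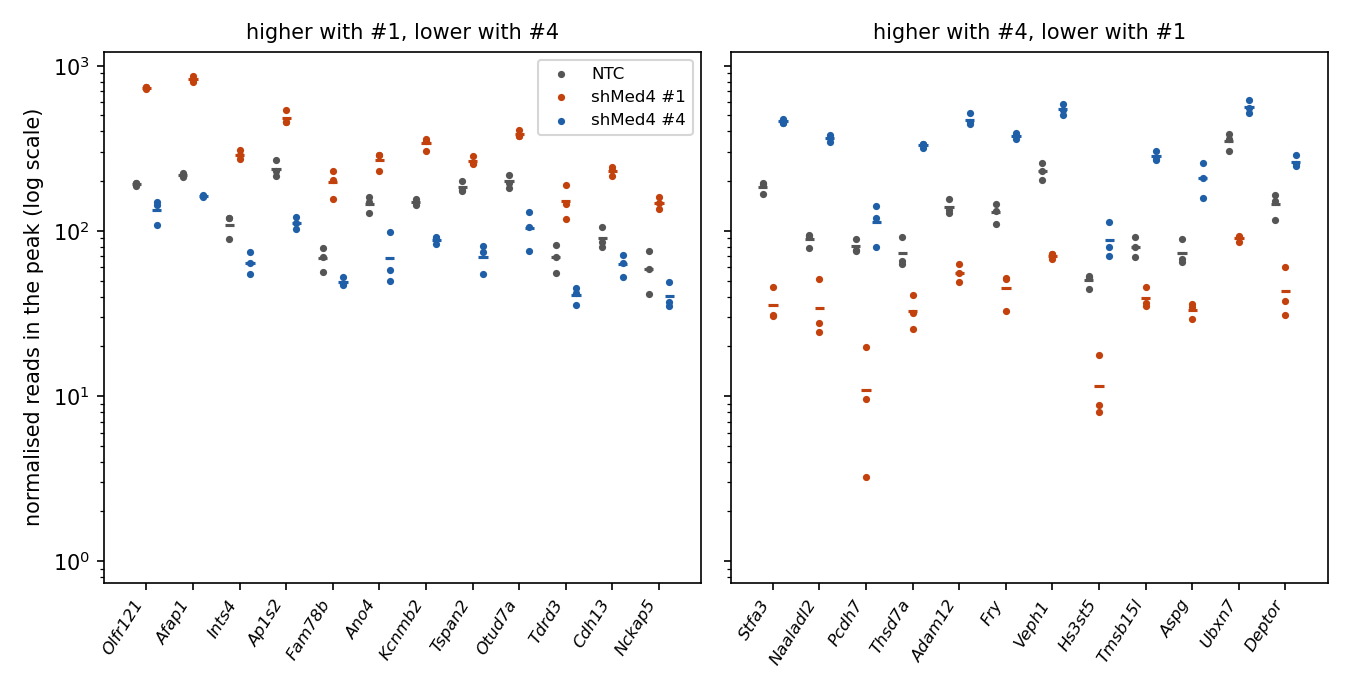
Normalised reads per library (points, log axis) and group means (bars) at the 12 members of each class with the largest ratio between hairpins, 1 per nearest gene and predicted genes left out. In the left panel #1 is above and #4 below NTC, with some overlap of #4 and NTC libraries at Nckap5, and in the right panel the order is reversed, with 1 #4 library of the Pcdh7 peak (79.4) among NTC values.

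In the #1-high class the largest difference lay 0.93 kb from Olfr121, an olfactory receptor gene, with 186, 196 and 196 in NTC, 745, 741 and 723 with #1, and 144, 150 and 109 with #4. Inside Afap1, whose product binds actin filaments and Src, a peak held 224, 218 and 213 in NTC, 824, 798 and 871 with #1, and 163, 160 and 166 with #4. These 2 were the only members with #1 at more than 3.8 times NTC, and their libraries did not overlap between groups. At the start of Afap1 the gene-end peak differed little, with means of 1631 in NTC, 1539 with #1 and 1445 with #4. A peak inside Ints4, a subunit gene of the Integrator complex, held 88.8, 119 and 119 in NTC, 272, 308 and 289 with #1, and 54.5, 63.9 and 74.1 with #4. A peak inside Tspan2, a tetraspanin gene, was moved mainly by #4, with 178, 175 and 201 in NTC, 283, 255 and 259 with #1, and 80.4, 74.2 and 54.7 with #4. The Tspan2 gene-end peak was higher with both hairpins, with means of 210 in NTC, 319 with #1 and 404 with #4.

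Further #1-high peaks lay 28694 bases from Ap1s2 (an adaptor subunit in vesicle traffic; means of 238, 483 and 112 in NTC, #1 and #4), inside Kcnmb2 (a potassium channel subunit; 150, 338 and 88.3) and inside Ano4 (of the anoctamin membrane proteins; 146, 269 and 68.5). Otud7a, a deubiquitinase gene, had one 8222 bases away with means of 199, 387 and 104. Cdh13, which encodes the lipid-anchored T-cadherin, held 4 #1-high peaks, the largest with 106, 80.1 and 85.1 in NTC, 214, 233 and 243 with #1, and 71.8, 52.4 and 63.5 with #4. The #1 libraries were above and the #4 libraries below every NTC library at this Cdh13 peak.

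The members with the most reads were more moderate. Among #1-high peaks the highest NTC level was inside Cdh5, the endothelial VE-cadherin gene, with 2287, 2407 and 2416 in NTC, 3220, 3139 and 3246 with #1, and 1698, 1821 and 1745 with #4. Next came a peak inside Hdac4, a class IIa histone deacetylase gene, with 1700, 1605 and 1611, then 3108, 2887 and 2955, then 1274, 1186 and 1108. The groups did not overlap at either peak. Cdh5 and Hdac4 had gene-end peaks that did not go opposite ways, with means of 239, 433 and 282 at Cdh5 and of 1530, 1528 and 1479 at Hdac4. Among #4-high peaks the highest was inside Wnt7a, a Wnt ligand gene, with 2050, 2031 and 1964 in NTC, 1075, 1054 and 1101 with #1, and 3133, 3257 and 3316 with #4. Another was inside Adgra2, which encodes a receptor known as a co-activator of Wnt7 signalling, with 1553, 1459 and 1518, then 822, 770 and 725, then 2253, 2301 and 2371. The Adgra2 gene-end peak was lower with both hairpins, with means of 682 in NTC, 418 with #1 and 553 with #4. Peaks 10.1 kb from Scarb1, the HDL receptor gene, and inside Hpcal1, a calcium sensor gene, were closer to the threshold, with means of 1683, 1291 and 2212 and of 1615, 1064 and 2160.

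Pcdh7, which encodes a protocadherin of cell adhesion, held 9 members, more than any other gene, all of them #4-high. Its 12 peaks lay 37.9 to 258.5 kb inside a gene of 417 kb, chr5:57716145-58133236, and no peak lay within 1 kb of either end. The lowest ratio with #1 was in the peak at chr5:57768571-57769072, with 89.6, 76.0 and 76.9 in NTC, 9.6, 3.24 and 19.8 with #1, and 141, 119 and 79.4 with #4, a log2 ratio of -2.89 with #1. At 222.6 kb from the start the values were 237, 232 and 227 in NTC, 45.6, 51.9 and 57.2 with #1, and 383, 432 and 415 with #4. At all 12 peaks every #1 library was below every NTC library, and at 9 of the 12 every #4 library was above every NTC library. The share of all peaks with either separation was not counted. By limma, a different measure, 24.9% of all tested peaks were called lower with #1 and 26.2% higher with #4. The 9 members had also been chosen for low #1 and high #4 means. The 3 peaks that were not members had #4 at 1.24, 1.14 and 1.25 times NTC, short of the ratio, and #1 at 0.308, 0.221 and 0.380. Of the 9 members, 8 followed each other with no other peak between, over 183 kb, the longest run in the series.

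Ptx3 lies within the span of Veph1, and its promoter peak was 1 of 4 members among the 12 peaks shown around it. At 3.9 kb before the Ptx3 start the values were 202, 232 and 259 in NTC, 72.0, 67.3 and 72.6 with #1, and 590, 541 and 503 with #4. At 10.8 kb before it they were 526, 440 and 459, then 273, 221 and 184, then 826, 758 and 850. The 4 members lay over 102 kb that end at the Ptx3 start, a span that held 8 peaks, 8 with a #1 mean below NTC and 7 with a #4 mean above it. The other 4 peaks lay beyond the start and did not share the pattern. At 20.8 kb the means were 734 in NTC, 770 with #1 and 867 with #4, and at 42.6, 89.9 and 112.1 kb #4 was at 0.943, 0.765 and 0.852 times NTC.

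**Figure D3:**
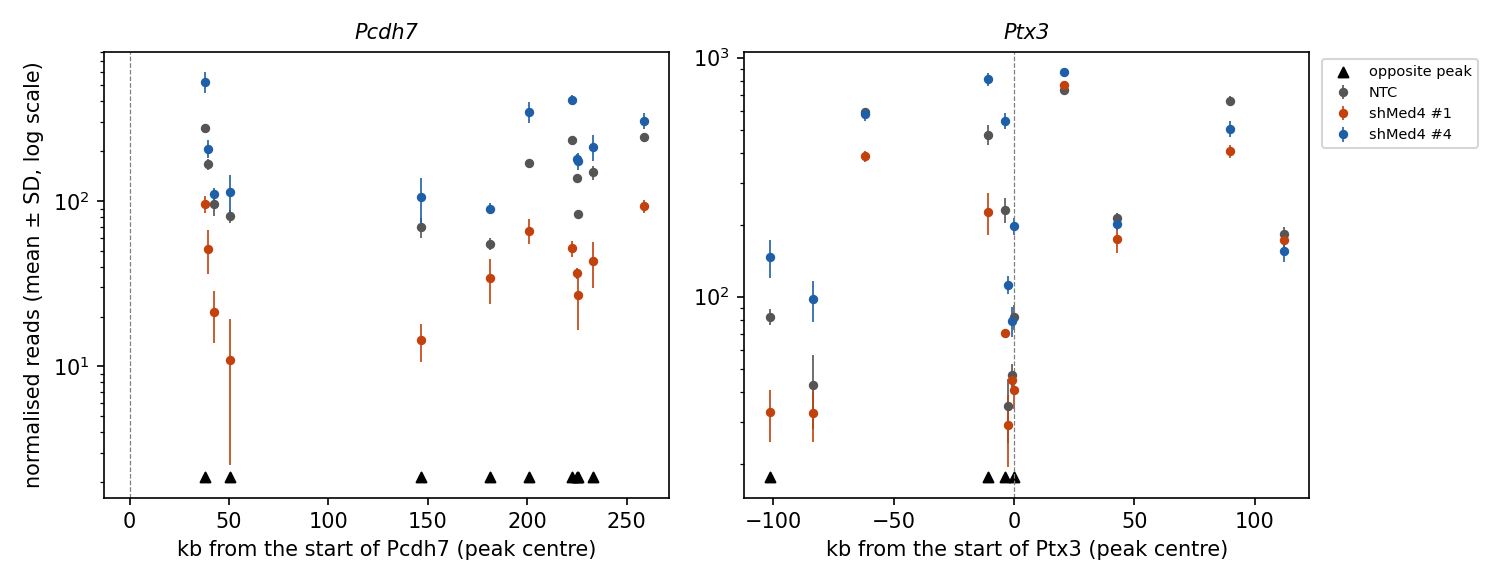
Group means ± SD (n = 3 libraries, log axis) of peaks by distance of the peak centre from the start of Pcdh7 (left, 12 peaks) and Ptx3 (right, 12 peaks). Black triangles mark peaks that met the rule, 9 at Pcdh7 and 4 at Ptx3, #1 means lie below NTC means at all 12 Pcdh7 peaks, and at Ptx3 the peak at 20.8 kb has a #1 mean of 770 above the NTC mean of 734.

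Wnt7a showed a different layout. Besides the peak with the most reads, 9.2 kb inside the gene, a second member lay 10.8 kb inside with 552, 544 and 551 in NTC, 214, 200 and 219 with #1, and 1060, 1110 and 1110 with #4. Other Wnt7a peaks were also lower with #1 but varied with #4. The one at 21.9 kb had means of 2323 in NTC, 1173 with #1 and 2282 with #4, the one at 38.2 kb had 1769, 913 and 1842, and the one at 28.2 kb, lower with both, had 582, 266 and 459. At the gene's start the peak held 122 in NTC, 80.8 with #1 and 111 with #4. Of the Wnt7a peaks given here, all had a #1 mean below NTC, and the 2 members had the highest ratios with #4.

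Position was not used by the rule. Members lay far from gene ends, with a median distance of 35.7 kb beside 16.3 kb for all peaks over the minimum, 27.4 kb for peaks higher with both hairpins and 16.4 kb for peaks lower with both. Gene-end peaks, those no more than 1 kb from where a protein-coding gene starts or stops, made up 64 members or 3.18% (2.15% of #1-high and 3.73% of #4-high), beside 11.6%, 4.35% and 8.02% of those sets. Members were low peaks and low peaks are less often at gene ends, so the shares were also read at like level. They were 3.33% against 5.02% at an NTC mean of 50 to 100, 3.61% against 6.12% at 100 to 200, 2.17% against 8.48% at 200 to 400 and 2.88% against 22% at 400 or more, members first and all peaks second. In the same order of levels, the share was 3.51%, 4.84%, 4.87% and 4.82% for peaks higher with both hairpins. It was 6.74%, 7.52%, 7.26% and 11.1% for peaks lower with both. At 50 to 100, members and peaks higher with both were thus alike, with median distances of 34.7 and 32.6 kb. Within genes lay 46.8% of members and 53.2% of all peaks. There was no protein-coding gene within 100 kb of 345 members.

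Gene ends of genes near a distal member were read next. Of 474 genes with a #1-high peak away from their ends, 317 had a gene-end peak over the NTC minimum, and 0 of these were #1-high. Their median log2 ratio was -0.09 with #1 and -0.14 with #4, beside -0.10 and -0.12 for the 12329 genes with such a peak. Of 903 genes with a distal #4-high peak, 553 had a gene-end peak, 3 of these were #4-high, and the medians were -0.12 and -0.11. Over all 12329 genes, 44 of these gene-end peaks were members of either class. The hairpins lay on the class's sides of NTC, at any size, in 10.7% of the 317 gene ends (10.6% of all genes) and in 13.0% of the 553 (8.89% of all genes). Genes were assigned by nearness, which is a convention and not a measured target. The gene-end members with the largest difference, besides those above, were at Kcnv2 (a potassium channel subunit gene; means of 254, 124 and 539 in NTC, #1 and #4) and Slc1a3 (a glutamate transporter gene; 179, 88.8 and 302). On the #1-high side, Pus10 (a pseudouridine synthase gene) had means of 59.3, 114 and 40.3, and Exoc3 (an exocyst subunit gene) had 120, 163 and 64.8.

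Neighbouring peaks that were not members leaned the same way, most strongly within a few kilobases and more weakly farther out. For all peaks over the minimum the median log2 ratio was -0.04 with each hairpin. Within 1 kb of a #1-high peak, 79 other peaks had a median log2 ratio of 0.27 with #1 and -0.20 with #4, at 5 to 10 kb the medians were 0.00 and -0.13, and at 100 to 500 kb they were -0.04 and -0.07. Within 1 kb of a #4-high peak, 133 others had medians of -0.24 with #1 and 0.18 with #4, and at 2 to 5 kb -0.11 and 0.00. The hairpins were on the class's sides of NTC, at any size, in 50.6% of peaks within 1 kb of a #1-high peak and 40.6% within 1 kb of a #4-high peak, beside 13.9% and 12.8% of all peaks over the minimum. These shares were 23.9% and 17.7% at 5 to 10 kb, and 18.4% and 13.4% at 50 to 100 kb. The gap between the hairpins' medians narrowed with distance. Peaks within 1 kb can share the edges of one open region, although the whole set held only 30 pairs of overlapping peaks.

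**Figure D4:**
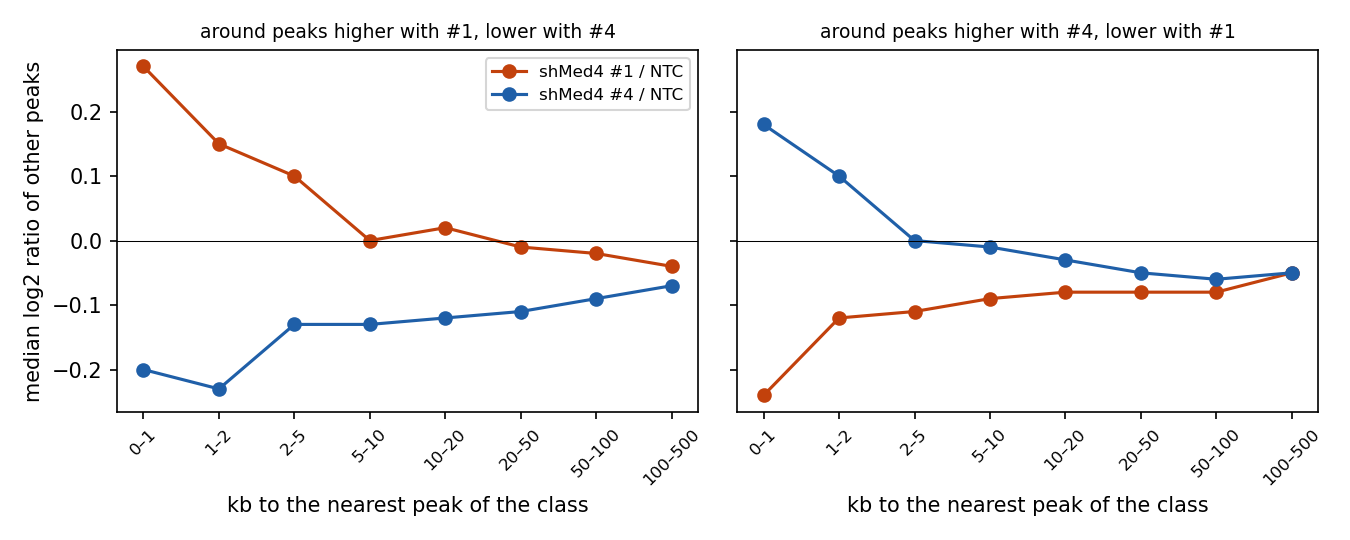
Median log2 ratio to NTC, with #1 and with #4, of peaks that were not members, by distance to the nearest #1-high peak (left) or #4-high peak (right). Medians with #1 and #4 start at 0.27 and -0.20 on the left and at -0.24 and 0.18 on the right and come together with distance.

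Most members had no other member as the next peak, but the share with one was above that over all peaks. Of the 2012, 204 (10.1%) had a member as the next peak on either side, beside 38.6% for peaks higher with both hairpins and 36.0% for peaks lower with both. Those sets are larger, and 2.69% of all peaks were next to an opposite peak, 18.9% next to a peak higher with both and 14.4% next to a peak lower with both. Set size therefore enters the comparison between the sets. By class, 7.89% of #1-high peaks had one of their class as the next peak, against 0.934% of all peaks. For #4-high peaks it was 10.7% against 1.76%. There were 8 members next to one of the other class. The 92 runs of members of one class included 85 pairs, 6 runs of 3, and the run at Pcdh7. The runs of 3 nearest to Frmd4a, Ccser1, Npsr1, Bicc1 and Pkdcc were #4-high, over 1.59 to 18.5 kb, and the one nearest to Fam78b, just over 100 kb from that gene, was #1-high.

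The shares of the 2 classes differed between chromosomes. #4-high peaks made up 1.61% of peaks over the minimum on chromosome 18, 1.43% on chromosome 12 and 1.39% on chromosome 2, beside 0.543% on chromosome 11. #1-high peaks made up 1.05% on chromosome 13 and 0.886% on chromosome 10, beside 0.188% on chromosome 6. All peaks of a chromosome could be shifted: the median log2 ratio over its peaks was -0.33 with #1 and -0.18 with #4 on chromosome 2, -0.26 and -0.17 on chromosome 12, -0.15 and -0.06 on chromosome 18, -0.03 and -0.14 on chromosome 13, and 0.07 and 0.10 on chromosome 6. When the median of each 10 Mb window was removed from each hairpin's ratio, 1884 peaks met the rule, 1365 of them members (67.8% of members), and the share of #4-high peaks became 0.881% on chromosome 2, 1.13% on chromosome 12 and 1.12% on chromosome 18. The share of #1-high peaks became 0.629% on chromosome 13 and 0.338% on chromosome 6. The part of gene copy number in these shifts was not tested.

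**Figure D5:**
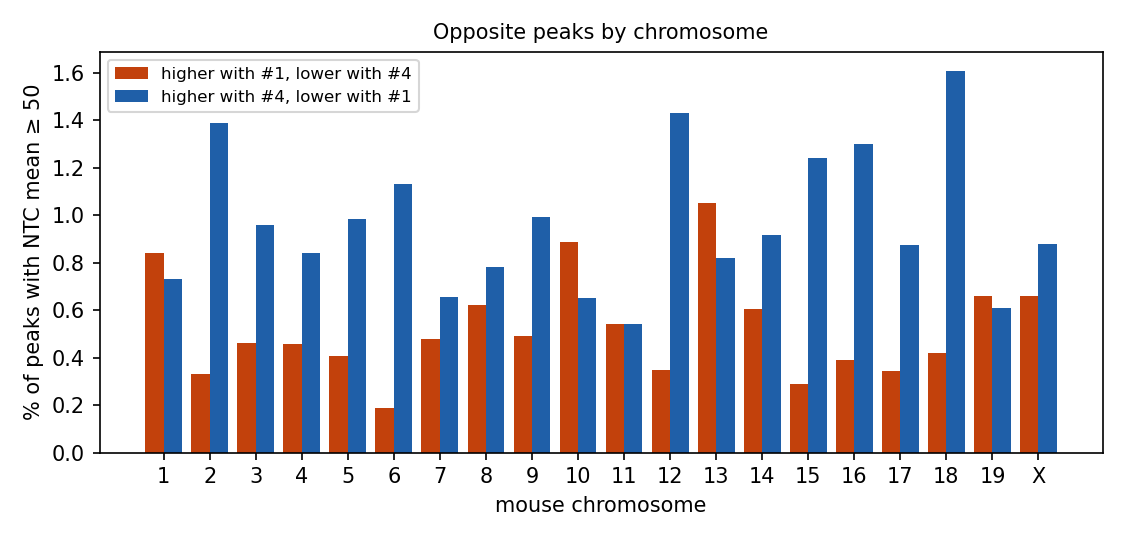
Share (percent, bars from 0) of peaks with an NTC mean of at least 50 that were higher with #1 and lower with #4, or the reverse, on each mouse chromosome. Chromosome 13 has 1.05% of the first class and 0.822% of the second, and chromosome 6 has 0.188% and 1.13%.

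Gene lists for breast carcinoma, adhesion and dormancy were read for members, beside 1.34% of peaks over all genes. The lists were chosen with earlier results of these data known, and the shares were not matched for NTC level or position. A share above 1.34% is therefore a description and no result about a list. The guidance and adhesion list had the most, with 9 #1-high and 18 #4-high peaks or 5.11% of its 528 peaks, and 3.49% without Pcdh7. Of its 18 #4-high peaks, 10 were at the protocadherin genes Pcdh7 and Pcdh9, and 8 were near Flrt3, Efnb2, Nrp1, Slit3 and Efna5, genes of guidance ligands and receptors. One inside Nrp1, a co-receptor of semaphorins and VEGF, held 156, 129 and 129 in NTC, 85.6, 94.1 and 106 with #1, and 249, 242 and 233 with #4, with no overlap. Efnb2 (an ephrin ligand; 216, 154 and 287 at 3.33 kb), Efna5 and Slit3 had such peaks too, and Pcdh9 had means of 311, 161 and 466. The #1-high peaks of this list were near Cdh13, Cdh11, Plxna2 and Plxna4, the last 2 being semaphorin receptors, with 682, 1015 and 495 at the strongest Plxna4 peak. Gene-end peaks were higher with both hairpins at Nrp1 (376, 508 and 482) and lower with both at Efna5 (753, 594 and 526). At Flrt3 the gene-end peak leaned the way of its member (1245, 1157 and 1480). Those at Efnb2 (3367, 3521 and 3596) and Plxna2 (434, 403 and 399) differed little.

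The matrix list had 1 #1-high and 7 #4-high peaks (1.79%). Inside Tnc, the tenascin C gene, the values were 125, 111 and 109 in NTC, 65.6, 51.9 and 55.0 with #1, and 179, 196 and 171 with #4. Loxl1, a lysyl oxidase gene for elastin, had 2 #4-high peaks (means of 195, 144 and 297, and of 180, 135 and 316), whereas Loxl4 of the same family had a #1-high peak (235, 438 and 171). Col5a2 had one 84273 bases away with 157, 68.9 and 214, and Fn1, Spp1 and Col1a2 had weaker ones. Integrin genes had 3 #1-high and 4 #4-high peaks (2.57%). Those near the alpha subunits Itga1 (111, 205 and 81.8), Itga2 (79.8, 142 and 54.1) and Itga4 were #1-high, and those inside Itga3 (171, 128 and 272), Itga9 (142, 102 and 240) and at Itgb6 were #4-high. Gene-end peaks were higher with both hairpins at Tnc (670, 912 and 948), Itga9 (140, 249 and 222) and Itga2 (200, 300 and 276). The one at Itga3 was lower with both (2362, 2078 and 2028). At Loxl4 (1201, 1343 and 1042) and, mainly with #4, at Itga1 (2100, 2132 and 1506) they leaned the way of the member. At Spp1 (709, 572 and 737) and Fn1 (2460, 2340 and 2477) #4 was near NTC.

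Among TGF-beta and BMP genes there were 2 #1-high and 6 #4-high peaks (2.25%). The ligand genes Inhba (595, 823 and 447) and Tgfb2 (266, 352 and 199) had the #1-high peaks. Nog, an antagonist of BMP ligands, had 2 adjacent #4-high peaks within 3 kb, the stronger with 409, 417 and 433 in NTC, 228, 273 and 255 with #1, and 738, 766 and 674 with #4. The ligand gene Bmp7 had 2 as well (243, 158 and 390 at the stronger), and Bmp2 and the inhibitory Smad6 had 1 each. Wnt genes had 3 #1-high and 6 #4-high peaks (2.26%). The members inside or near the ligand genes Wnt7a, Wnt7b and Wnt11 were #4-high (123, 81.6 and 230 inside Wnt7b). Those inside or near the receptor genes Fzd5 (152, 228 and 110) and Lgr6 were #1-high, and Dkk2, a secreted Wnt inhibitor, had 1 of each. Gene-end peaks were higher with both hairpins at Wnt7b (159, 231 and 286) and Lgr6 (330, 404 and 441). The Fzd5 gene-end peak differed little (2392, 2311 and 2358).

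AP-1 and immediate early genes had 2 #1-high and 3 #4-high peaks (2.92%). A peak 47.4 kb from Atf3, a stress-response factor gene, held 924, 792 and 769 in NTC, 1430, 1323 and 1332 with #1, and 390, 478 and 353 with #4, without overlap, while the Atf3 gene-end peak had means of 1137, 1440 and 1154. Fos had a #1-high peak at 37460 bases (113, 147 and 72.5) and a #4-high peak at 11474 bases (68.1, 41.3 and 115), and its gene-end peak was lower with both hairpins (1551, 1261 and 1234). The RUNX, ETS, TEAD and GATA list had 3 #4-high peaks (0.817%), at Gata3, Gata6 and Runx2. EMT factors had 1 (0.725%), 30.6 kb from Grhl2, an epithelial transcription factor gene, with 419, 268 and 680. The interferon and NF-kB list had 1 #1-high peak (0.671%), 16.7 kb from the chemokine gene Cxcl1 (582, 773 and 445). The dormancy list had 1 (0.543%), a #4-high peak 66.5 kb from Tpm1, a tropomyosin gene, with 161, 190 and 191 in NTC, 137, 144 and 97.9 with #1, and 433, 545 and 476 with #4. The Tpm1 gene-end peak was level, with means of 2699, 2703 and 2616. Mediator genes had 3 (1.12%), a #1-high peak inside Med27 (979, 1514 and 704) and #4-high peaks inside Med13l (149, 106 and 208) and 82.3 kb from Med30 (87.9, 61.3 and 125).

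The edge of the rule passed through like peaks. The members nearest the ratio, near Dlk1, Tmem274 and Rnpep, had a smaller arm of 1.3 to 1.3001, and the peaks just outside, near Slc9a9, Rspo2 and Afap1l2, had 1.2998 to 1.3. The members nearest the NTC minimum, near Mast4, Hs3st5 and Mindy3, had 50.04 to 50.05.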

How the data were processed

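Bulk ATAC-seq was measured in 9 libraries of D2A1-d cells, 3 per group. The authors deposited a normalised signal value for each peak and library, scaled by DESeq2 per the deposited file's name, and peaks are 501 bases wide. Tools listed in the submitters' processing notes were BWA, Trim Galore, featureCounts, Subread and MACS2, without versions, and the build was mm10. Values were whole multiples of a step per library within 0.001 of a read, which gave 44753019 to 98898174 reads in peaks. The lowest members hold few reads, and these values carry the counting error of that depth. Count tests were planned but not run, because in most libraries the smallest value was not that of 1 read, so the unit was kept as a scaled signal.

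The peaks and gene lists were chosen with earlier results of these data known. Group means gave the rule. On log2(value + 1), limma 3.58.1 (R 4.3.3) was fitted to all 9 libraries at 146729 peaks with a mean of at least 10, which left out 5, with Benjamini-Hochberg adjusted p under 0.05 as the call. The steps were tested on simulated data. Fold changes on this scale understate those of low peaks. Python 3.11.15, numpy 2.4.6, pandas 2.3.3, scipy 1.17.1 and matplotlib 3.10.9 did the rest. A peak was given the nearest of 21631 RefSeq protein-coding genes (GRCm38.p6) within 100 kb, and a gene end means within 1 kb of either end. Whether the deposited coordinates count from 0 is not stated, and they are printed as deposited. Peaks named in the text were those with the largest ratio between hairpins, the highest NTC mean or a gene-end position in each class, the members of the lists, and genes with the most members, with predicted genes left out. Loci and gene-end peaks shown beside them were chosen after values were seen. Letters were searched in the 250 promoter bases, since no genome was used, and motif shares over whole peaks are not analysed here. Alternatives were another ratio, NTC minimum, scaling, filter, pseudocount, gene-end distance or gene set, each single library left out, and a replicate block.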

Additional observations from a re-analysis of the deposited data

How the results depend on the processing

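The number of opposite peaks depends on the ratio and the minimum asked for. It was 4673 at a ratio of 1.2 (1932 #1-high and 2741 #4-high), 463 at 1.5 (90 and 373) and 1140 at an NTC minimum of 100 (657 #4-high). The gene-end share was 4.97% at 2 kb (17% of all peaks over the minimum) and 6.81% with all gene types (16.2%), the share with an adjacent member 5.88% at an NTC minimum of 100, and the held-out share on the chosen sides 93.9% at a ratio of 1.5 and 93.3% at that minimum, in place of 85.1%. With each of the 9 libraries left out in turn there were 1980 to 2180 opposite peaks, 659 to 865 #1-high and 1271 to 1408 #4-high, 1263 to 1487 called both ways, a gene-end share of 3.03% to 3.64% and an adjacent share of 9.69% to 11.2%. Calls were then 68565 to 80567 with #1, 64736 to 74424 with #4 and 52810 to 60028 between hairpins. Members chosen under other scalings overlapped the 2012 in part: 95.1% of the 2012 were kept with equal totals and 74.9% with gene-end centring. The class counts shifted, from 697 #1-high and 1315 #4-high to 602 and 1457 with equal totals and 546 and 1457 with gene-end centring. No member changed its side of NTC under either, and 8 did when 10 Mb medians were removed. With a replicate block, calls were 79653 with #1 (77395 without), 76395 with #4 (74006), 63631 between hairpins (61001) and 1598 called both ways (1569). Same-numbered libraries correlated at -0.011 to 0.073 in their deviations from group means, so the numbers were not taken to pair libraries. Strata of NTC level were added after seeing the data. The edgeR, DESeq2 and whole-peak motif alternatives were not run. Of the 2012, 872 had an NTC mean of 50 to 100, where counting error is larger.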

Other observations

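Some genes held both classes. Of 1373 genes with a member within 100 kb, 228 had at least 2 members and 61 had members of both classes. Ankfn1 had 5 #1-high peaks and 1 #4-high peak among 20 peaks over 267 kb. Its #4-high peak, with means of 79.7 in NTC, 44.9 with #1 and 110 with #4, lay 9.9 kb from the nearest #1-high one, and the #1-high peak with the most reads had means of 529, 899 and 332. Hdac4, besides its #1-high peak inside the gene, had 2 #4-high peaks 15.7 and 16.3 kb outside it, with means of 71.4, 43.2 and 122 and of 79.8, 54.8 and 109. Inpp4b, which encodes a phosphoinositide phosphatase, had 3 #1-high and 1 #4-high, and Frmd4a had 1 and 3.

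Other genes held several members of one class. Dlg2, a synaptic scaffold gene, had 5 #1-high peaks, the one with the most reads at means of 604 in NTC, 883 with #1 and 438 with #4, while its gene-end peak had means of 2197, 2116 and 2150. Ccser1 had 5 #4-high peaks in 41.4 kb, the one with the most reads at 525, 345 and 791. The one member within 1 kb of a microRNA gene lay 129 bases from Mir6407, inside Xpnpep1, with means of 54.6, 36.7 and 86.0.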
